A study of Mus musculus with 2 samples.

Results

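The caller that the authors used gave every nucleosome a score, and the score stopped at a ceiling of 3250. The calls described here are those at that ceiling on chromosomes 1 to 19 and on the mitochondrial chromosome M. There were 670 of them among 1289750 ethanol calls on these chromosomes (exact Poisson interval 620 to 723) and 728 among 1413240 tamoxifen calls (676 to 783). That is 0.0519% of the ethanol calls and 0.0515% of the tamoxifen calls, 1398 members in all. They were chosen by their score, so their scores are a description. The lowest score listed was 50.1 and the median was 86.0 in each library. Just outside the ceiling, the 5 highest ethanol scores ran from 3217.1 to 3230.0 and the 5 highest tamoxifen scores from 3213.8 to 3227.0. Only 64 ethanol calls and 55 tamoxifen calls lay between 3000 and the ceiling, fewer than at the ceiling itself.

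The data are MNase-seq of mouse embryonic stem (ES) cells. Both libraries came from Brg1fl/fl cells that carry Actin-CreER, a Cre recombinase that tamoxifen activates. One culture received 0.8 µM tamoxifen and the other received the same volume of ethanol, each for 24 hours followed by 48 hours in fresh medium. Cells grew on gelatin in medium with serum and LIF. The alleles are floxed in both cultures, and loss of Brg1 was not checked here. Each group had 1 library, sequenced from the mononucleosome band of a 12 U digest, so no difference between the treatments has a replicate check and no test was made. The 95% intervals allow for counting error alone and treat calls as independent, which calls in a cluster are not. The depth in reads is not known.

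Micrococcal nuclease cuts the linker DNA between nucleosomes and leaves the DNA wrapped on the histone octamer. Where one position is protected in most cells, fragments pile up and a caller gives a strong nucleosome. Fragments also pile up where a sequence is present in more copies in the cell than in the reference assembly. Satellite repeats beside the centromeres, the telomere repeats, ribosomal RNA gene arrays and mitochondrial DNA are sequences known for high copy number. Brg1 drives esBAF, the form that the SWI/SNF chromatin remodeler takes in ES cells. The sequences under the calls were not analysed here. Copy number, mappability and duplicate reads were not tested.

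The calls at the ceiling lay in a few dense clusters and in many places of 1 or 2 members. When centres within 10 kb were joined over both libraries, the 1398 members fell into 266 clusters. Of these, 20 clusters held 10 or more members and together 894 of them, 63.9%. Another 30 clusters of 3 to 9 members held 130. At the other end, 158 clusters had exactly 1 ethanol call and 1 tamoxifen call, named isolated pairs below. The last 58 were single calls, 25 from ethanol and 33 from tamoxifen. Isolated means only that no further member lay within 10 kb. The pair on chromosome 8 at 19940801 to 19940961, for example, lay between large clusters, and some pairs on chromosome 2 lay among other clusters. The 20 large clusters all had members from both libraries, with more tamoxifen members in 13, more ethanol members in 3 and equal numbers in 4. The tamoxifen list was also the longer, with 1413240 calls against 1289750, and the share at the ceiling was 0.0515% against 0.0519%. This difference was not tested. No cluster with more than 1 member came from 1 library alone.

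**Figure D1:**
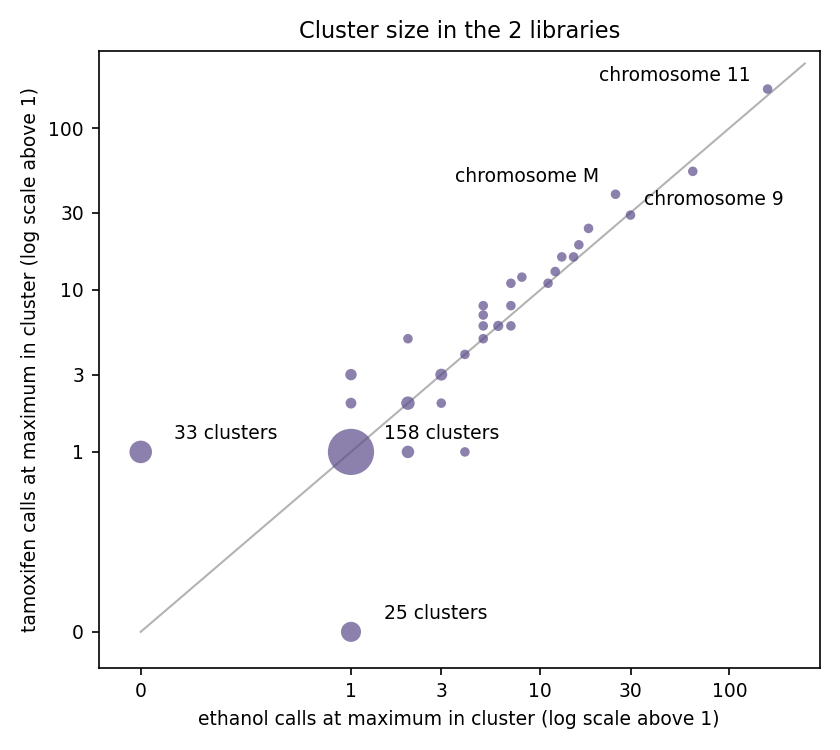
Number of calls at the maximum score per cluster in the ethanol library (x axis) and in the tamoxifen library (y axis), on axes that are logarithmic above 1; a larger point stands for more clusters, and the line marks equal numbers. The 158 isolated pairs are the largest point, and clusters with more than 1 call lie near the line from the smallest to the 333 calls on chromosome 11.

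Chromosomes 11, 8 and 9 carried more than their share of the members. They held 358 ethanol members, 53.4% of all, but 20.7% of the ethanol calls. For tamoxifen the figures were 380 members, 52.2%, and 20.5% of the calls. Chromosome 11 had 21.2 members per 10000 ethanol calls and 21.5 per 10000 tamoxifen calls. Chromosome 9 had 11 and 9.01, chromosome 8 had 9.51 and 9.91, and chromosome 17 had 7.73 and 8.02. For the other 15 autosomes the ethanol values were 1.22 to 6.21 and the tamoxifen values 1.01 to 5.61. Chromosome 12, which has the second highest number of calls, had only 13 ethanol and 11 tamoxifen members. The members of chromosomes 11 and 9 lay mostly in clusters. Isolated pairs and single calls numbered 7 in each library on chromosome 11, and 10 ethanol and 11 tamoxifen calls on chromosome 9.

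**Figure D2:**
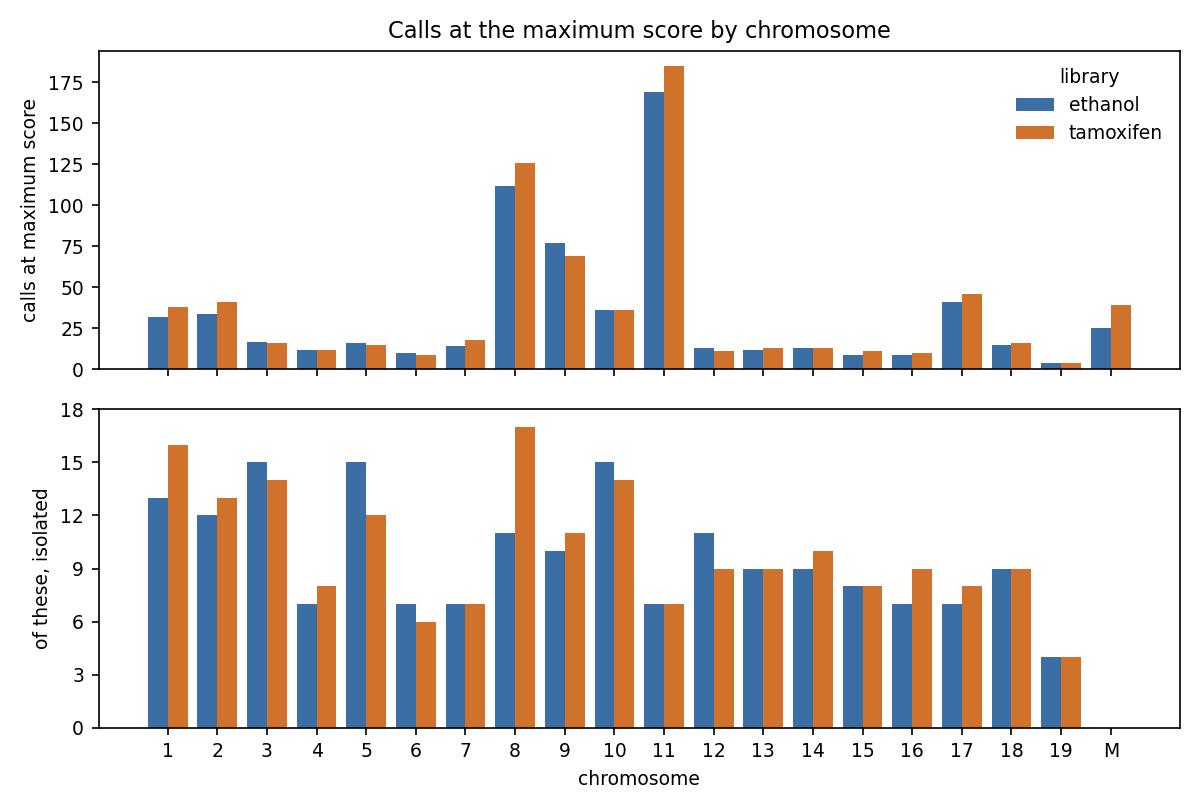
Bars give the number of calls at the maximum score on each chromosome (upper panel) and the number of these that are isolated pairs or single calls (lower panel), for the ethanol and tamoxifen libraries. Chromosome 11 stands highest in the upper panel with 169 and 185 calls but has 7 isolated calls in each library in the lower one.

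The largest cluster lay near the start of the listed span of chromosome 11, from 3025671 to 3099741 on mm9. It held 159 ethanol and 174 tamoxifen members. Listed spans of the autosomes began between 3000061 (chromosome 11) and 3009931 (chromosome 8), and no call was listed before that. Mouse chromosomes are acrocentric, and their coordinates begin at the centromeric end. Within these 74070 bp each library had 242 calls, so 65.7% of the ethanol calls and 71.9% of the tamoxifen calls there were at the ceiling. The other calls in the cluster went down to scores of 67.5 and 85.8. In the 50 kb on either side, the median score was 107.5 with ethanol and 101.6 with tamoxifen. A smaller cluster of 1 ethanol and 3 tamoxifen members lay in that flank, from 3000431 to 3002521.

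The second cluster, on chromosome 9 from 3000401 to 3038011, began with the first call listed on that chromosome. All 64 ethanol calls and all 54 tamoxifen calls within its 37610 bp were at the ceiling. The next call came 410 bp further on in the ethanol list and 500 bp further on in the tamoxifen list. In the following 50 kb the highest score was 334.5 among 114 ethanol calls and 403.6 among 141 tamoxifen calls. Calls in the cluster were less dense than in the largest cluster on chromosome 11, at 1.7 per kb with ethanol and 1.44 per kb with tamoxifen. The chromosome 11 cluster had 3.27 per kb in each library.

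A pair of smaller clusters showed the same all-or-none form. On chromosome 17 from 39980201 to 39985651, all 16 ethanol and all 19 tamoxifen calls were at the ceiling. The list was nearly empty around them: the nearest call before the cluster was 28980 bp away for ethanol and 36450 bp for tamoxifen, and the highest score within 50 kb was 101.0 and 120.6. On chromosome 10 from 7229431 to 7237061, all 15 ethanol and all 16 tamoxifen calls were at the ceiling. The highest score within 50 kb of that cluster was 377.4 with ethanol and 239.2 with tamoxifen. A further cluster near the start of a listed span, on chromosome 17 from 3077631 to 3082841, held 12 members among 19 ethanol calls and 13 among 17 tamoxifen calls.

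**Figure D3:**
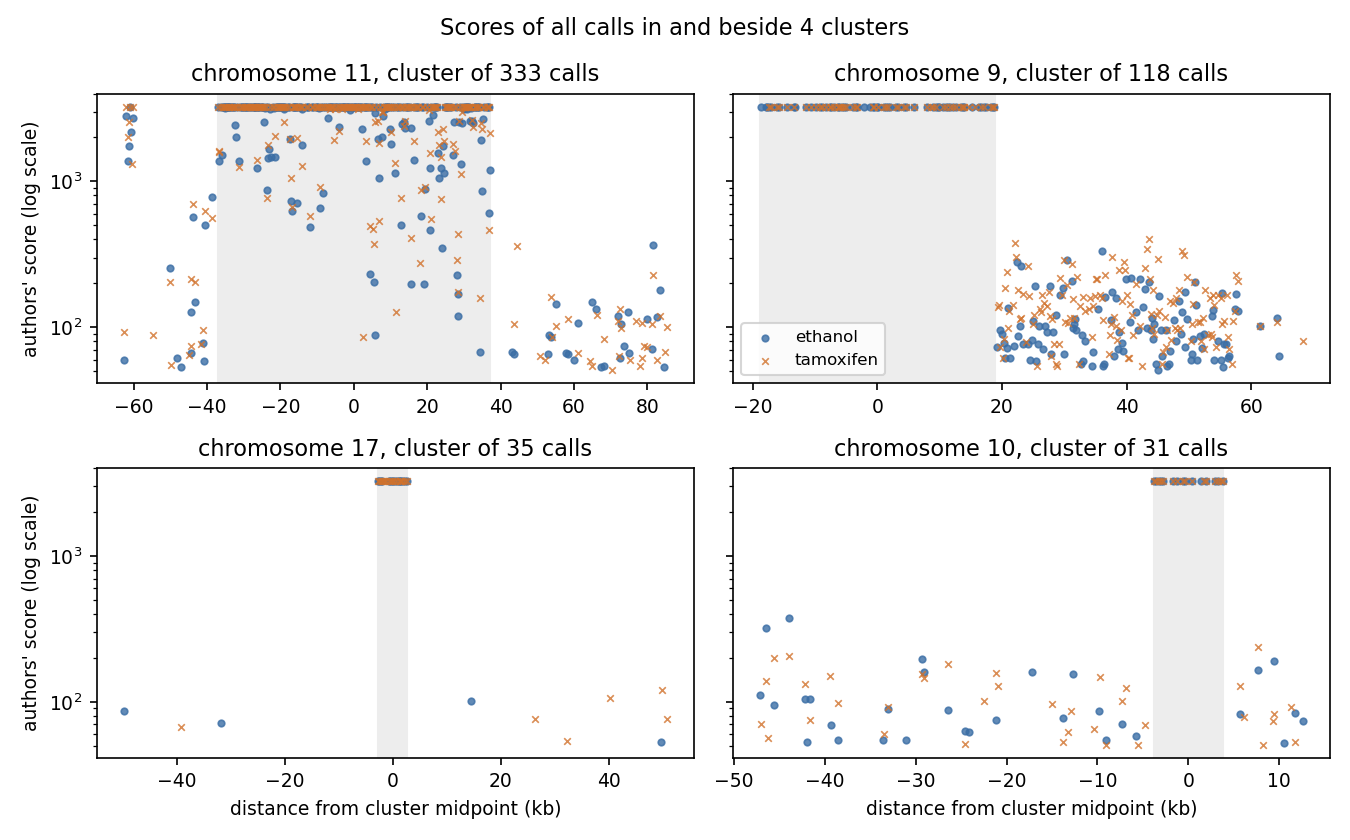
Each point is a call, placed by its distance from the midpoint of the cluster in kb (x axis) and by the authors' score on a log axis (y axis); the shaded band is the cluster, circles are ethanol and crosses tamoxifen. On chromosomes 9, 17 and 10 every call in the band is at 3250 and the calls outside stay at or below 403.6, while on chromosome 11 lower scores lie among those at the maximum.

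Chromosome 8 differed from these, with several clusters in one stretch and many lower calls among the members. Between 19682451 and 20024081, 9 clusters held 84 ethanol and 91 tamoxifen members over 341630 bp. The largest of them, from 19682451 to 19736961, had 30 members among 159 ethanol calls (18.9%) and 29 among 167 tamoxifen calls (17.4%). The median score of all calls in it was 1380.0 with ethanol and 1363.3 with tamoxifen. The next, from 19917591 to 19929161, was richer, with 18 members among 35 ethanol calls and 24 among 36 tamoxifen calls. Those from 19750301 to 19766091 and from 19953371 to 19977761 had 13 and 11 ethanol members, and 16 and 11 tamoxifen members. Flanking scores were high as well and include neighbouring clusters, with ethanol medians of 487.6 to 973.2 beside the 4 clusters named here. A like stretch on chromosome 2, from 77708211 to 77862311, held 18 ethanol and 22 tamoxifen members in 8 clusters.

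Mitochondrial DNA is packaged by the protein TFAM and carries no histones, so the word nucleosome does not apply to calls on chromosome M. With ethanol, 25 of 56 calls there were at the ceiling (44.6%, Wilson interval 32.4 to 57.6%). With tamoxifen, 39 of 58 were (67.2%, 54.4 to 77.9%). The calls covered the chromosome from 221 to 16151, at a median distance of 265 bp in the ethanol library and of 250 bp in the tamoxifen library. All 25 ethanol members had a tamoxifen member within 100 bp. The other 14 tamoxifen members comprised 13 with an ethanol call of lower score, 1113.6 to 3050.7, and 1 with no ethanol call within 100 bp. The intervals of the 2 shares overlapped, but overlap is not a test of their difference. With 1 library per group the difference has no replicate check.

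Members stood near the start of the listed spans far more than other calls, most of them on chromosomes 11 and 9. The shares below include chromosome M, which has no centromeric end. It had 1 ethanol and 3 tamoxifen members in its first 5%, and 3 and 4 in its last 5%. In the first 5% of the listed span lay 271 ethanol members, 40.4% (Wilson interval 36.8 to 44.2%), against 4.37% of all ethanol calls. For tamoxifen it was 284 members, 39.0% (35.5 to 42.6%), against 4.43%. In the last 5% lay 4.78% and 4.67% of the members, against 7.24% and 7.07% of all calls. Both ends together held 45.2% of the ethanol and 43.7% of the tamoxifen members, against 11.6% and 11.5% of all calls. Without the chromosome 11 cluster the members' shares were 28.2% and 26.0%. These still include the chromosome 9 cluster of 64 ethanol and 54 tamoxifen members. Of the calls scored from 2000 to just below the ceiling, 14.3% (ethanol) and 10.3% (tamoxifen) lay in the first 5%. At either end it was 18.1% and 14.9% of them. Of the isolated pairs, 7 of 158 in each library, 4.43%, lay in the first 5%, and 20 of 158, 12.7% (8.35 to 18.7%), in the last 5%.

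On 4 autosomes the very last call of the list was at the ceiling, in both libraries. These were chromosomes 2, 5, 11 and 18. Telomere repeats form the ends of chromosomes. On chromosome 2 a cluster of 3 ethanol and 3 tamoxifen members closed the list, from 181747461 to 181747921, and on chromosome 18 a cluster of 2 and 2 did so, from 90771611 to 90771851. Chromosomes 5 and 11 each ended in 1 member per library, at 152537121 to 152537231 and at 121843711 to 121843801, the same in both. On the other 15 autosomes the last call scored between 50.8 and 369.8. Over all 19 autosomes, the last 10 kb of the listed span held 8 members among 102 ethanol calls and 8 among 118 tamoxifen calls. The first 10 kb held more, 18 among 171 ethanol calls and 17 among 188 tamoxifen calls. Chromosome 9 supplied 15 and 11 of those. Of all calls on chromosomes 1 to 19 and M, 0.0519% and 0.0515% were at the ceiling.

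Isolated pairs differed in width from clustered members. Over all members the median width was 100 bp in each library, the same as for all calls. Members of the 19 large clusters on autosomes also had a median of 100 bp in each library. They were more often 80 to 90 bp wide, at 43.1% of 399 ethanol members (Wilson interval 38.3 to 48.0%) against 34.9% of all ethanol calls. For tamoxifen the figures were 43.6% of 431 (39.0 to 48.3%) and 34.7%. Isolated pairs instead had a median of 150 bp, with a second group of narrow calls, 31.0% at 80 to 90 bp in each library. Among their ethanol calls 51.3% (43.5 to 58.9%) were 150 to 170 bp wide, as were 49.4% (41.7 to 57.1%) of the tamoxifen calls. Of all calls, 10.3% (ethanol) and 10.1% (tamoxifen) had such widths, and in the large clusters 7.27% and 6.5% did. Among calls scored from 2000 to just below the ceiling it was 11.7% and 12.8%, with 37.6% and 35.6% at 80 to 90 bp. Single calls had medians of 170 bp (25 ethanol calls) and 140 bp (33 tamoxifen calls). Of these, 32.0% and 18.2% were 150 to 170 bp wide. On chromosome M no member was 150 to 170 bp wide, and the widest was 140 bp.

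**Figure D4:**
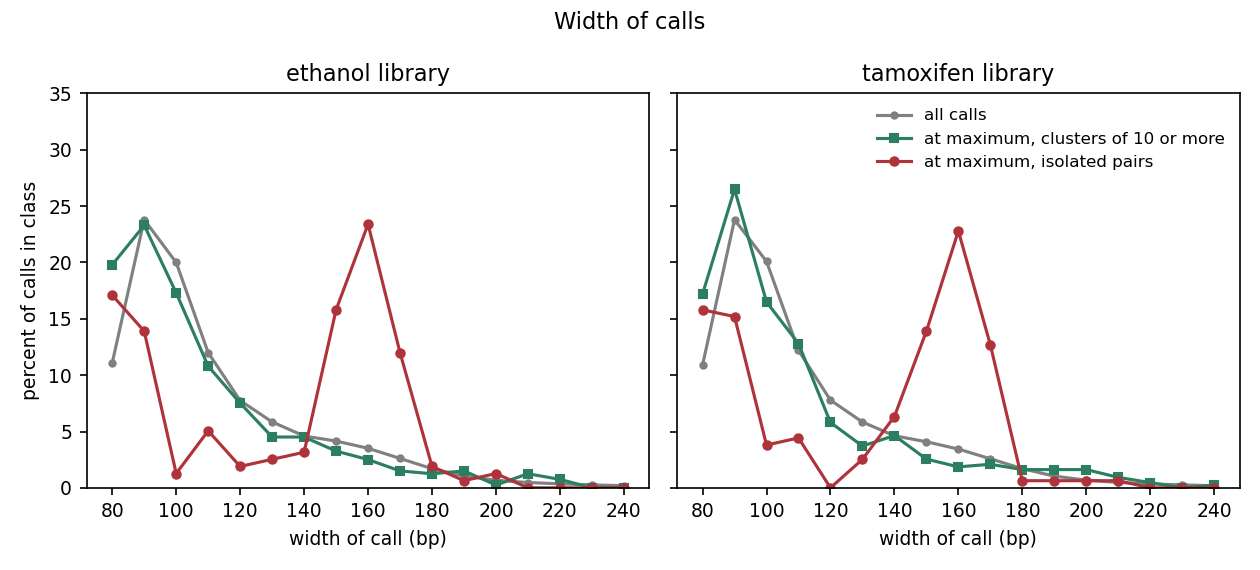
Percent of calls (y axis) at each width in bp (x axis) for all calls, for calls at the maximum in autosomal clusters of 10 or more, and for isolated pairs, with the ethanol library on the left and tamoxifen on the right. Clustered calls follow the shape of all calls with a peak at 90 bp, whereas isolated pairs have a peak at 160 bp and another at 80 to 90 bp.

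An isolated pair has, by how it was defined, a member of each library within 10 kb, so the closeness of its calls is given as a description. Their ethanol and tamoxifen centres were within 100 bp of each other in 154 of 158 pairs and within 20 bp in 153. In 118 pairs, 74.7%, the calls had the same start and the same end. Among all calls, 4.25% of the ethanol calls and 3.88% of the tamoxifen calls had such an identical partner. Calls scored from 2000 to just below the ceiling had one in 26.8% of ethanol cases (23.0 to 31.0%) and 25.3% of tamoxifen cases (21.8 to 29.2%). In 74 pairs both calls were 150 to 170 bp wide, and 70 of these were identical (94.6%, Wilson interval 86.9 to 97.9%). In 47 pairs both were 80 to 90 bp wide, and 37 were identical (78.7%, 65.1 to 88.0%). In the large autosomal clusters the identical share was 34.1% with ethanol and 33.6% with tamoxifen. Members with no counterpart at the ceiling within 10 kb had an identical call of any score in the other library in 8 of 25 ethanol cases, 32.0% (Wilson interval 17.2 to 51.6%), and in 11 of 33 tamoxifen cases, 33.3% (19.8 to 50.4%). All positions lie on a 10 bp grid, so identical means the same to within that grid.

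Many of the wide pairs had no neighbour in the lists. Of the 74, 44 ethanol calls (59.5%, Wilson interval 48.1 to 69.9%) had no other call of any score within 1 kb in their own library, as had 36 tamoxifen calls (48.6%, 37.6 to 59.8%). Of the 47 narrow pairs it was 40.4% (27.6 to 54.7%) of the ethanol and 29.8% (18.7 to 44.0%) of the tamoxifen calls, intervals that overlap those of the wide pairs. Such overlap is not a test, and the difference between wide and narrow pairs was not tested. Over all calls the shares with no other call within 1 kb were 23.8% and 22.2%, and over all members 11% and 8.38%. A pair has by definition no other member within 10 kb. Where a neighbour was called within 1 kb, the strongest one had a median score of 82.8 with ethanol and 96.8 with tamoxifen, close to the median of the whole list. The wide pairs were spread over all 19 autosomes.

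Members within a cluster did not lie at one fixed spacing. Successive members of a library within a cluster were a median of 450 bp apart with ethanol (quartiles 270 and 885 bp, 437 distances) and 415 bp with tamoxifen (240 and 882.5 bp, 487 distances). These distances are limited by the 10 kb within which calls were joined into clusters. Over all distances between successive members of a chromosome, a comparison chosen after seeing the data, the medians were 882.5 and 800 bp, near the 820 and 780 bp between successive calls of any score. The spreads were unlike, with upper quartiles of 1540750 and 631120 bp for members and 1895 and 1765 bp for calls of any score. Without the chromosome 11 cluster the members' medians within clusters were 590 and 540 bp. Of the distances within clusters, 19.9% with ethanol and 24.2% with tamoxifen were 140 to 240 bp, the range around 1 nucleosome repeat. For 275 of the ethanol distances and 322 of the tamoxifen distances no lower call lay between the members. Those were a median of 305 and 285 bp, and 31.6% and 36.6% of them were in that range. Successive calls of any score were in that range in 14.5% and 14.8% of cases. Calls of any score were dense around members, with a median of 37 other ethanol calls and 40.5 other tamoxifen calls within 10 kb of the centre, against 17 and 18 for all calls. Calls scored from 2000 to just below the ceiling had at least as many around them, with medians of 41 and 43. Isolated pairs had fewer, with medians of 10 and 12. Distances under 140 bp between members occurred 4 times with ethanol and 7 times with tamoxifen.

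Most members were called in both libraries. Members without a counterpart at the ceiling were divided between those with a lower partner call and those with none. Of the ethanol members, 588 of 670 had a tamoxifen member within 100 bp (87.8%, Wilson interval 85.1 to 90%), against 0.0545% of all ethanol calls. Of the tamoxifen members, 590 of 728 had an ethanol member within 100 bp (81.0%, 78.0 to 83.7%), against 0.0456% of all tamoxifen calls. Counted one to one as mutually nearest calls, there were 587 shared members. A call of any score within 100 bp was present for 94.9% of the ethanol members (93.0 to 96.3%) and 96.0% of the tamoxifen members (94.3 to 97.2%). Over all calls it was 65.6% and 60.0%. Calls scored from 2000 to just below the ceiling had a partner as often, with 96.1% of 463 ethanol calls (93.9 to 97.5%).

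Members without a counterpart at the ceiling numbered 82 with ethanol and 138 with tamoxifen. Of these, 48 ethanol members had a lower tamoxifen call within 100 bp, scored 901.7 to 3222.2 with a median of 2776.1. For tamoxifen, 109 had a lower ethanol call, scored 971.4 to 3223.5 with a median of 2668.9. The lowest of these partners still ranked above 99.69% and 99.73% of its own list. No call within 100 bp was found for 34 ethanol and 29 tamoxifen members. The chromosome 9 cluster supplied 14 of the 34, as 50 of its 64 ethanol members had any tamoxifen partner. Of its 54 tamoxifen members 51 had an ethanol partner. In all 19 large autosomal clusters together, 43 ethanol members had no counterpart at the ceiling. Of these, 17 had a lower tamoxifen call within 100 bp and 26 had none. For tamoxifen it was 74 members, 53 with a lower ethanol call and 21 with none.

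**Figure D5:**
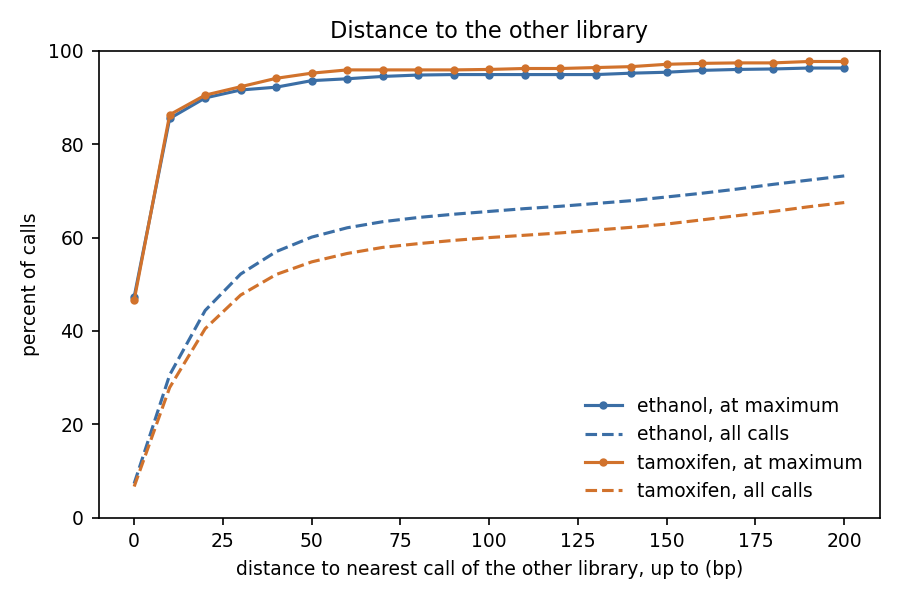
Cumulative percent of calls (y axis) whose nearest call in the other library lies within the distance in bp on the x axis; solid lines with points are calls at the maximum score and dashed lines all calls, by library. At 20 bp the members reach 89.9% (ethanol) and 90.5% (tamoxifen) against 44.4% and 40.5% of all calls.

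Single members have no other member of either library within 10 kb, so none of them has a counterpart at the ceiling. Of the 25 ethanol singles, 20 had a lower tamoxifen call within 100 bp, and of the 33 tamoxifen singles, 30 had a lower ethanol call. Among the first 5 of each library in chromosome order, the ethanol calls on chromosome 1 at 85315791 to 85315921, chromosome 2 at 50599371 to 50599591 and chromosome 3 at 40449101 to 40449281 had tamoxifen partners scored 2637.9, 2577.0 and 1633.9. The other two, on chromosome 1 at 197105361 to 197105531 and on chromosome 3 at 9861691 to 9861861, had their nearest tamoxifen calls 2000 and 1050 bp away, with scores of 51.9 and 67.0. Both were 170 bp wide. The 5 tamoxifen singles, on chromosome 1 at starts 12647621, 63676941, 85257891, 87554221 and 182721161, all had an ethanol partner within 15 bp, scored 2608.4 to 3190.6. With 1 library per group, an effect of tamoxifen and the spread between libraries cannot be told apart.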

How the data were processed

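Reads were aligned with Bowtie 0.12.9 to mm9, per the submitters' processing notes. The authors deposited 1 list of called nucleosomes for each of the 2 libraries, with start, end and a score per call, and each library was called by itself. The caller, what its score measures and how duplicate reads were handled are not given in the sources read. The score therefore served only to choose and rank calls within a list. The other deposited values used are positions, printed as the authors' files hold them, on a 10 bp grid.

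Groups follow the sample titles. Each call was placed at its centre, midway between start and end. Members were calls at the highest score on chromosomes 1 to 19 and M. Their centres were joined within 10 kb over both libraries, and partners were sought within 100 bp. The listed span of a chromosome ran from the first to the last position in either list. Intervals at 95% are Wilson for shares and exact Poisson for counts. Named clusters are the 10 with most members, the first 5 single members of each library and chromosome M, beside others chosen after their values were seen: the stretch on chromosome 2, the flanking cluster on chromosome 11 and the chromosome ends. The width classes were also chosen after the widths had been seen. The members and measures were chosen with earlier results of these data known. No gene is named, because the annotation at hand is on another build. The functions were tested on simulated calls. Python 3.11.15 was used with scipy 1.17.1, numpy 2.4.6, matplotlib 3.10.9 and pandas 2.3.3.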

Additional observations from a re-analysis of the deposited data

Results flagged for a closer look

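The sex chromosomes lie outside the calls described above and also held calls at the ceiling. On the X chromosome these were 47 of 9935 ethanol calls, 0.473% (Wilson interval 0.356 to 0.628%), and 71 of 11234 tamoxifen calls, 0.632% (0.501 to 0.796%). On the Y chromosome they were 40 of 324 ethanol calls, 12.3% (9.2 to 16.4%), and 49 of 370 tamoxifen calls, 13.2% (10.2 to 17.1%). Over chromosomes 1 to 19 and M the shares were 0.0519% and 0.0515%. The X and Y shares rest on short lists of calls. Chromosome 19, the autosome with fewest calls, had 32795 ethanol and 36023 tamoxifen calls. All 40 ethanol calls at the ceiling on Y, and 38 of the 47 on X, had a tamoxifen call at the ceiling within 100 bp. In the other direction, 41 of the 49 tamoxifen calls on Y and 38 of the 71 on X had an ethanol call at the ceiling within 100 bp. On Y they fell into 4 clusters in each library, the largest of 25 and 28 calls.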

How the results depend on the processing

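Of 100 values under other settings, 67 stayed within the counting interval of the reported value, or within 1.5 times for counts. Lowering the score limit adds members by construction: at 2000 there were 1133 ethanol and 1253 tamoxifen members in 488 clusters, with 34.2% and 31.6% within 5% of a chromosome end. At 1000 there were 3228 and 3703 in 2180 clusters, with 22.2% and 21.0% near an end, 60.5% in clusters of 3 or more, 78.9% and 68.8% matched at that limit, and 96.6% of ethanol members with any partner. Without the chromosome 11 cluster, 64.9% of members were in clusters of 3 or more (73.2% with it), the median spacing was 590 bp (ethanol) and 540 bp (tamoxifen), and 28.2% and 26.0% lay near an end. Within 20 bp, 84.9% of ethanol members had a partner at the ceiling, and 89.9% and 90.5% of the ethanol and tamoxifen members had any partner. Within 200 bp, 84.6% and 97.7% of the tamoxifen members had one at the ceiling and of any score. Clusters of 3 or more held 69.5% with joining within 2 kb, and 66.7% (ethanol) and 69.5% (tamoxifen) when each library was clustered alone, which removes the partners from the other library. With all distances between successive members of a chromosome, added after seeing the data, the median spacing was 882.5 bp (ethanol) and 800 bp (tamoxifen). End zones of 2% held 39.4% and 37.9%, and zones of 10% held 49.3% and 47.7%. Autosomes alone gave no value outside these limits. Where a change does not follow from how the setting was built, the cause was not tested. Depth in reads is unknown, and a score at the ceiling hides differences above it. No paired analysis was possible because there is only 1 library per treatment.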
